A study of Canis lupus familiaris with 20 samples.

Results

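The exosome and cell libraries of the dog osteosarcoma line OS-1 were compared gene by gene. They were chosen by their labels and make up 6 of the 20 libraries of the series: 4 exosome libraries, numbered 1 to 4, and 2 cell libraries, lettered A and B. OS-1 is an established line from a canine bone tumour, grown in culture, and the exosomes came from supernatants of such cultures. All values therefore describe 1 line, with no treatment or genotype to compare, and no label says that libraries of a group are separate cultures. The p-values therefore reflect how far these libraries vary, and that variation may be technical. The labels give the same preparation text for both fractions, with ExoQuick precipitation, the SeraMir kit for exosome RNA and a SMARTer stranded kit for very small inputs, and do not say how RNA of the cells was taken. The study sought an exosomal gene signature of this tumour, and 3 other lines with both fractions (OS-2, OSCA-78 and OSCA-8) entered the fit.

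Exosomes are small membrane vesicles that form inside endosomal compartments and are released when these fuse with the plasma membrane. They carry proteins, lipids and RNA of the cell of origin, and the RNA is often fragmented. Precipitation reagents such as ExoQuick also bring down other particles of the medium that hold nucleic acid, so that RNA in such a preparation need not all lie inside vesicles. Genes carry Ensembl identifiers without names, so that neither the roles of the genes nor the defining markers of vesicles, bone cells or other cell types could be given. All levels are in CPM, a gene's counts scaled to a common library total. They are shares of a library and say nothing about the amount of RNA per vesicle or per cell.

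The 2 cell libraries held 10730009 (A) and 7728553 (B) counts and the 4 exosome libraries 259078, 355194, 478322 and 440689. A count of 0 allowed up to 0.280 and 0.388 CPM in the cell libraries, and 11.6, 8.45, 6.27 and 6.81 CPM in exosome libraries 1 to 4, taking 3 counts as the limit. The exosome libraries fell into a pair 1 and 2 and a pair 3 and 4. The chi-square of their counts per degree of freedom was 2.39 between libraries 1 and 2 and 2.11 between 3 and 4, but 7.44 to 8.90 across the pairs. It was 137 between cells A and B, at a much greater depth, which raises this value. Of 9922 genes at 10 CPM or more in a cell library, 1914 were more than 2-fold higher in A and 933 in B. Results are therefore given library by library, or with each pair left out.

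Exosome counts were spread over far more genes than cell counts. In exosome libraries 1 to 4, 19694, 20696, 21274 and 21281 genes had a count, against 16186 in cells A and 14704 in cells B, in spite of the deeper cell libraries. With every library reduced to 259078 counts, the exosome libraries held 20084 ± 280 genes (SD, n = 4) and the cell libraries 11442 ± 569 (SD, n = 2). The fractions did not overlap. The exact two-sided permutation test, which doubled the smaller tail, gave p = 0.133, the smallest p that this rule allows for 4 against 2. It took 2380, 2781, 3558 and 3554 genes to make up 50% of the counts of exosome libraries 1 to 4, but 841 genes in cells A and 667 in cells B. All 4 exosome libraries were thus less concentrated than both cell libraries by this measure.

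The head of the ranking behaved differently in the pairs. The most abundant gene took 12.6% of library 1 and 8.91% of library 2, but 0.718% of library 3 and 0.460% of library 4, compared with 1.42% in cells A and 1.47% in cells B. The 10 most abundant genes took 18.9%, 14.4%, 2.4996% and 1.63% of exosome libraries 1 to 4, and 7.19% and 8.56% of cells A and B. Libraries 1 and 2 lay above both cell libraries and libraries 3 and 4 below them, so the mean of 9.35 ± 8.62% (SD, n = 4) has a spread wider than its distance from the 7.87 ± 0.968% of cells (SD, n = 2). The 10 genes that led the pooled cell counts made up 6.42% of cells A and 7.44% of cells B, and 0.452%, 0.392%, 0.191% and 0.149% of exosome libraries 1 to 4. Those shares were lower in all 4 exosome libraries.

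**Figure D1:**
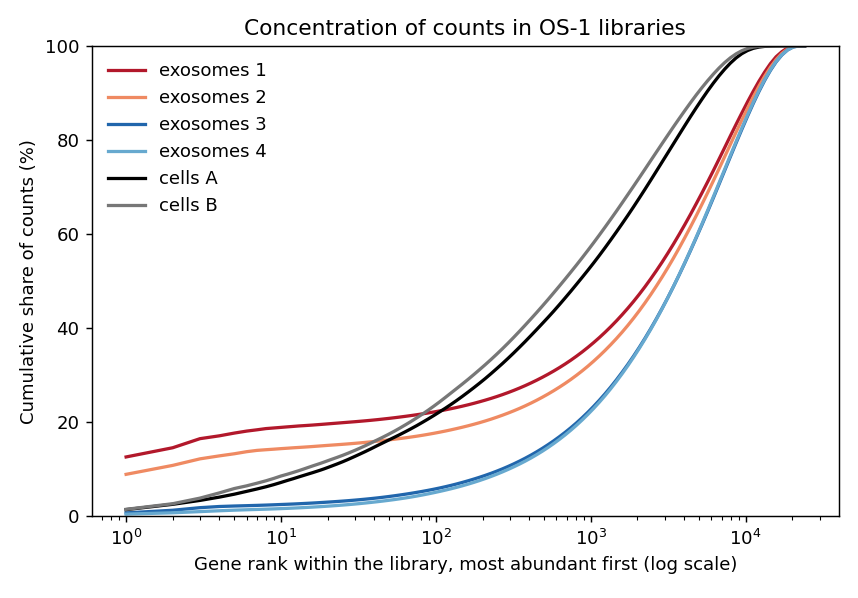
Cumulative share of counts (y axis, percent) against gene rank within each library (x axis, log scale) for the 4 exosome and 2 cell libraries of OS-1. The curves of exosome libraries 1 and 2 start at 12.6% and 8.91% with a single gene and then rise slowly, those of libraries 3 and 4 start under 1%, and all 4 reach 50% at 2380 to 3558 genes, to the right of both cell curves.

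A union of 19 genes filled the top 10 places of the 4 exosome libraries. Libraries 1 and 2 shared 9 of their 10 leading genes and libraries 3 and 4 shared 6, while 4 genes were in the top 10 of all 4 libraries. Only 1 of the 19 was also in the top 10 of a cell library. In pooled cells 4 of the 19 lay under 1 CPM and 6 over 100 CPM. The same gene led libraries 1 and 2. It stood at 126090, 89132, 640 and 388 CPM in exosome libraries 1 to 4, and at 97.4 CPM in cells A and 396 CPM in cells B. Libraries 1 and 2 lay far above both cell libraries and library 3 above both, whereas library 4 lay between cells A and cells B. The 11 genes in the top 10 of library 1 or 2 took 19.0% and 14.4% of those libraries, 2.26% of library 3, 1.35% of library 4 and 0.0822% and 0.0797% of cells A and B.

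The next question was how the exosome share of a gene related to its abundance in the cells. Genes with a count in OS-1 cells were ordered by their pooled cell CPM and divided into 5 groups of 3360 or 3361, from group 1 (0.0542 to 0.704 CPM) through group 2 (0.704 to 6.99), group 3 (6.99 to 25.7) and group 4 (25.7 to 66.5) to group 5 (66.5 to 13218 CPM). Another 7778 genes were without a single one of the 18458562 counts of both cell libraries. Cells kept most of their counts in group 5, whereas exosomes spread theirs. Group 5 took 38.04%, 35.5%, 27.5% and 27.3% of exosome libraries 1 to 4, and 78.2% and 81.4% of cells A and B. Group 4 took 18.05 ± 2.003% of exosome libraries (SD, n = 4) and 14.1 ± 1.37% of cell libraries (SD, n = 2), a small difference beside the others.

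The scarce genes filled the rest of the exosome libraries. Group 1 took 11.1%, 10.7%, 10.9% and 10.9% of exosome libraries 1 to 4, and 0.0973% and 0.0610% of cells A and B. Its exosome shares were thus nearly equal in this grouping, while the shares of the leading genes differed widely between the pairs. With groups formed from cells A alone, group 1 took 9.05% of exosome library 1 and 10.60% to 10.74% of libraries 2 to 4. Group 2 took between 10.99% and 13.32% in exosomes and between 0.806% and 1.13% in cells, and group 3 between 15.02% and 15.97% in exosomes and between 4.55% and 5.53% in cells. The genes with no cell count took 9.01% of library 1 (Clopper-Pearson 95% interval 8.90% to 9.12%), 9.77% of library 2 (9.67% to 9.87%), 12.7% of library 3 (12.6% to 12.8%) and 12.9% of library 4 (12.8% to 13.0%). Of these 7778 genes, 3067 had a count in all 4 exosome libraries. Such intervals cover counting error only. Since the groups were formed from the cell counts, the direction for the scarcest genes was fixed by the grouping.

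**Figure D2:**
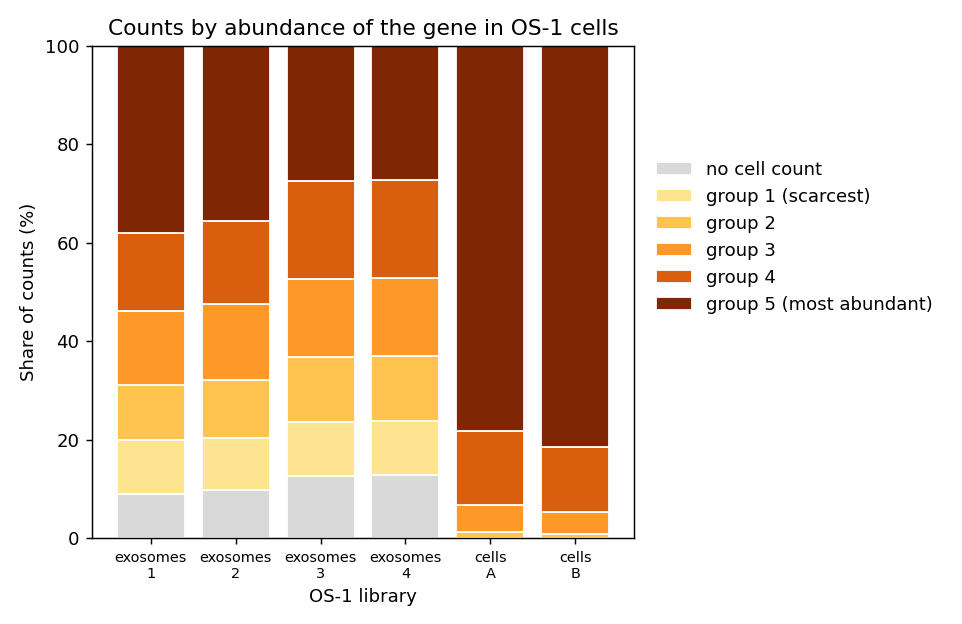
Share of counts (y axis, percent) taken in each OS-1 library (x axis) by genes with no cell count and by the 5 groups of cell abundance, stacked to 100%. Group 5 fills 78.2% and 81.4% of the cell bars and 27.3% to 38.04% of the exosome bars, while group 1 is visible in the exosome bars alone, at 10.7% to 11.1%.

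Once the genes over 1% of an exosome library were set aside, the pairs were much closer. There were 4 such genes. Without them, as a share of the remaining counts, group 5 took 30.6%, 30.3%, 27.5% and 27.3% of exosome libraries 1 to 4 and the genes without a cell count 10.8%, 11.1%, 12.7% and 12.9%. Group 4 then took 19.1%, 19.2%, 19.8% and 19.8%. Libraries 1 and 2 still held more of the counts in group 5 than libraries 3 and 4.

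To keep the choice of genes apart from the comparison, groups were then formed from cells A, and exosomes were set against cells B. The level of a gene rose less with its rank in cells in the exosome libraries than in cells B. The median gene of group 1 stood at 15.4, 16.9, 18.8 and 15.9 CPM in exosome libraries 1 to 4, the median gene of group 4 at 38.6, 39.4, 46.0 and 45.4 CPM and that of group 5 at 57.9, 61.9, 60.6 and 63.5 CPM. The median of group 5 was 2.23-fold to 2.75-fold that of group 2 in the exosome libraries and 57.8-fold in cells B. Genes without a count in cells A had lower exosome medians, at 3.86, 5.63, 6.27 and 6.81 CPM in libraries 1 to 4, which is 1 to 3 counts. Group 1 had a median of 0 in cells B, so no such ratio from group 1 is given there.

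Over 20 finer bins of about 809 genes, the share of an exosome library relative to the share of cells B fell from the scarcest to the most abundant genes, though not at every step. In the scarcest bin, with a median of 0.0932 CPM in cells A, this ratio was 55.5, 58.0, 69.9 and 70.8 in exosome libraries 1 to 4. It was 10.4, 11.1, 11.99 and 12.2 in a bin with a median of 2.61 CPM, and 0.867, 0.888, 1.04 and 1.05 in a bin with a median of 62.9 CPM. In the most abundant bin, with a median of 369 CPM, it was 0.192, 0.198, 0.162 and 0.149. Exosomes and cells thus held about equal shares of genes near 60 CPM in cells, with the scarcer genes above and the more abundant genes below. The order of libraries 1 and 2 against 3 and 4 turned round between the ends of the range. Cells A and cells B differed in the scarcest bin as well, where cells B held 3.13 times the share of cells A, against 0.995 times in the most abundant bin.

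Library 1 or 2 left the course of libraries 3 and 4 in 3 bins, and each of these holds 1 gene over 1% of a library. In the bin with a median of 108 CPM the ratio was 2.03, 1.65, 0.726 and 0.732 in libraries 1 to 4, and without that gene 0.723, 0.728, 0.722 and 0.731. In the bin with a median of 14.6 CPM it was 4.59, 4.59, 3.35 and 3.45, and without that gene 3.57, 3.41, 3.35 and 3.45. In the bin with a median of 0.186 CPM it was 35.0, 50.5, 39.1 and 38.15, and without that gene 37.7, 36.7, 39.1 and 38.1. With the genes over 1% set aside, the 4 libraries thus lay close together in these bins. In the most abundant bin they did not, at 0.230, 0.225, 0.162 and 0.149, libraries 1 and 2 above libraries 3 and 4.

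**Figure D3:**
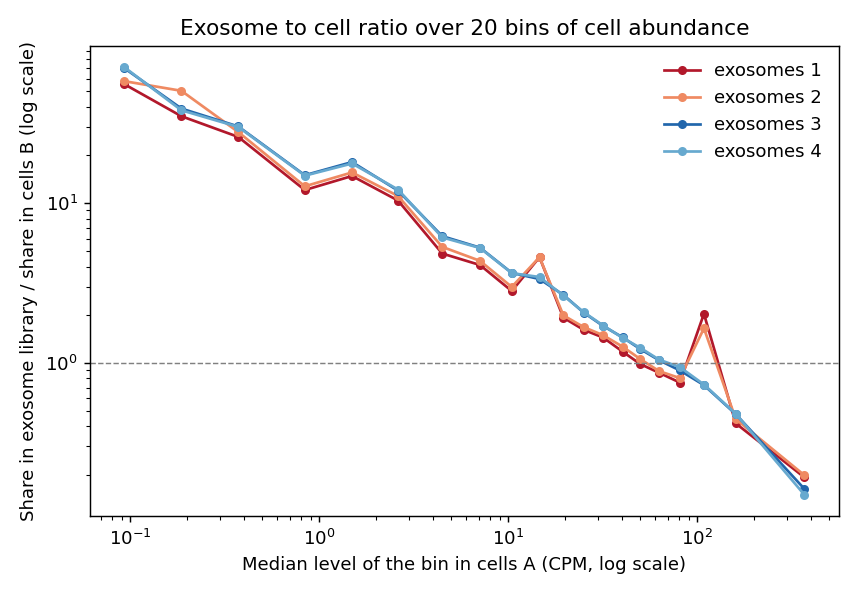
Ratio of the share of counts in an exosome library to that in cells B (y axis, log scale) over 20 bins of genes ordered by their level in cells A (x axis, median CPM of the bin, log scale), 1 line per exosome library. All 4 lines start between 55.5 and 70.8 at the left and end between 0.149 and 0.198 at the right, and the peaks of libraries 1 and 2 at medians of 14.6 and 108 CPM each hold 1 gene over 1% of a library.

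Gene by gene, 70.6% of 16211 tested genes differed between OS-1 exosomes and OS-1 cells (edgeR's quasi-likelihood test, Benjamini-Hochberg adjusted p under 0.05, spread pooled over 18 libraries). Of these, 6838 were higher in exosomes (42.2%) and 4615 lower (28.5%). The difference exceeded 2-fold for 6790 and 4372 of them, 4-fold for 6099 and 2549, and 16-fold for 4729 and 426. The median log2 fold change was 9.42 for tested genes without a cell count and 6.52 for those of group 1. Such sizes rest on few or no cell counts, so the higher and lower tallies cannot be set side by side. A fit of the 6 OS-1 libraries alone called 67.8% of 14462 genes, with 5992 higher (41.4%) and 3808 lower (26.3%, edgeR), of which 5860 and 3785 were called the same way by the larger fit. The balance of directions moved with the filter: edgeR called 2915 higher and 2997 lower of 11564 genes chosen by cell counts alone, and 11382 and 4797 of 24097 genes without a filter. It also moved with the scaling, since the tests compare shares. Under trimmed-mean (TMM) scaling 59.7% of the called genes were higher, under RLE scaling 70.9% (7893 higher, 3234 lower), under upper quartile scaling 69.1% (7673 and 3436) and under scaling to total counts 77.5% (8515 and 2467). Over all genes tested, the median on the log2 scale was 0.55, 1.16, 1.06 and 1.51 in that order.

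The calls followed cell abundance, to be read against the background of 42.2% higher and 28.5% lower. In group 5, 17 of 3360 tested genes were higher and 2895 (86.2%) lower, and the median log2 fold change was -2.13. In group 4, 128 of 3359 were higher and 1411 lower, with a median of -0.81. Under scaling to total counts, group 4 turned to 638 higher and 482 lower with a median of 0.15, so its direction depended on the scaling. Group 5 stayed below under each of these scalings, at -1.53 with RLE, -1.62 with upper quartile and -1.17 with total counts. In group 3, 702 of 3040 tested genes were higher and 309 lower, with a median of 0.42. These became 1224 and 136 with RLE (median 1.02), 1125 and 156 with upper quartile (0.92) and 1507 and 75 with total counts (1.39). Measured from the median over all tested genes under TMM scaling, groups 3, 4 and 5 lay at -0.14, -1.37 and -2.68, values that a change of scaling hardly moves by construction.

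The genes scarcer than that could hardly be called lower. The filter on low counts asked for 20.8 CPM in at least 2 of the 18 libraries and kept 2292 genes of group 2, 1875 of group 1 and 2285 without a cell count. Of these 1841, 1867 and 2283 were higher and 0 lower. DESeq2 called 2116, 1872 and 2236 higher and limma 1763, 1844 and 2282, and both called 0 lower. The grouping and the filter fixed this direction between them. The unadjusted p was under 0.05 for 11793 of all genes tested. Without the filter edgeR called 1917 of 3360 genes of group 2 higher and 31 lower, 2693 of 3360 and 0 in group 1, and 5996 of 7296 and 0 among those without a cell count.

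Genes well measured in both cell libraries gave the clearer view, since either direction could be seen. There were 6395 genes at 20 CPM or more in cells A and in cells B, of which 4239 were lower in exosomes, 137 higher and 2019 not called. This split moved with the scaling, to 3071 lower and 443 higher with RLE, 3246 and 365 with upper quartile, and 2375 and 699 with total counts (edgeR). It also moved with depth, to 2457 lower and 475 higher of 6249 with each library thinned to the smallest total (edgeR). At 200 CPM or more, 661 of 666 genes were lower and 0 higher, with a median log2 fold change of -3.59. The count lower was 644 with RLE, 652 with upper quartile, 627 with total counts and 650 with DESeq2, and none was higher under any of these. All 57 genes at 1000 CPM or more were lower, each more than 2-fold below the mean cell level in every exosome library by CPM, and 30 of them more than 10-fold. Choosing genes for a high level in both cell libraries favours lower values in exosomes, and its part in these counts was not tested. For the broader group 5, formed from cells A and compared with cells B, the median log2 ratio was -1.97, -1.97, -2.18 and -2.13 in exosome libraries 1 to 4.

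Depletion seldom meant absence. Among the 3474 genes at 50 CPM or more in both cell libraries, 16, 12, 22 and 26 had no count in exosome libraries 1 to 4, and 0 had none in all 4. By CPM, 2100, 2024, 1881 and 1835 of these genes lay more than 2-fold below the mean cell level in exosome libraries 1 to 4, and 67, 69, 140 and 152 more than 2-fold above it. In all 4 libraries together, 1457 genes lay more than 2-fold below, 761 within 2-fold and 30 more than 2-fold above. Over all genes with a cell count, 194 had no exosome count, and the most abundant of them stood at 27.1 CPM in pooled cells, against the 1.96 CPM that 3 counts in the 1533283 pooled exosome counts make.

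**Figure D4:**
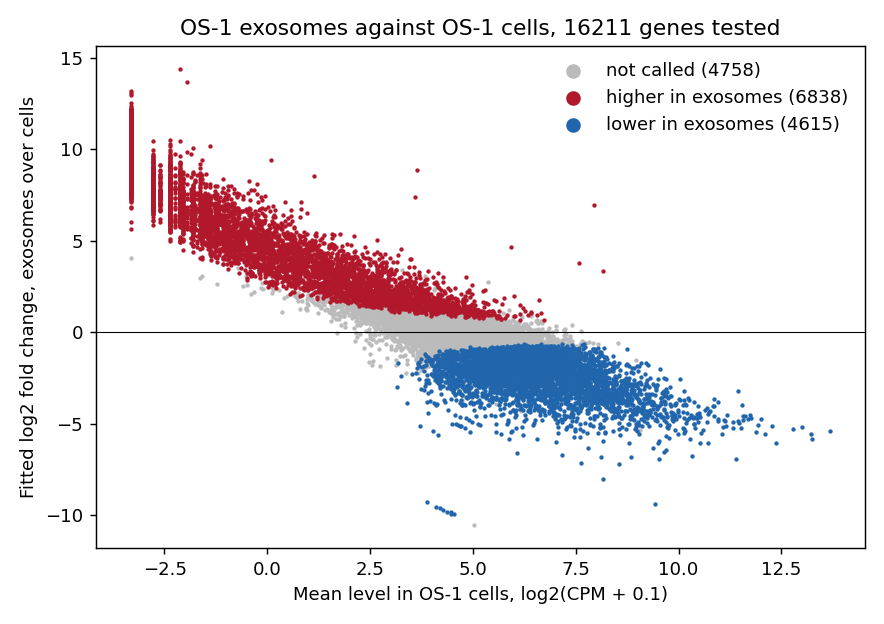
Fitted log2 fold change of OS-1 exosomes over cells (y axis) against the mean level in OS-1 cells, log2(CPM + 0.1) (x axis), for the 16211 genes tested, coloured by call. Genes called higher (6838) lie mostly at low cell levels and genes called lower (4615) at high ones; the cell level enters both axes, so the slope is in part built in.

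The 4 exosome libraries were then set against both cell libraries one by one. All 4 exosome libraries lay above both cell libraries in CPM for 8424 of the tested genes (52.0%) and below both for 2899 (17.9%). Of the 6838 genes called higher, 6489 had all 4 libraries above both cell libraries, 294 had 3, 51 had 2 and 4 had 1. Taken singly, libraries 1 to 4 lay above for 6626, 6747, 6790 and 6781 of them. Most genes called higher belong to the scarce groups, whose direction the grouping and the filter fixed, so this agreement between libraries describes them and supports nothing. Of the 4615 called lower, 2896 had all 4 libraries below both cell libraries, 742 had 3, 559 had 2, 288 had 1 and 130 had none. Libraries 1 to 4 lay below for 3961, 3857, 3724 and 3674 of these genes. CPM corresponds to scaling by total counts, under which the median of all genes lay at 1.51, whereas the calls rest on TMM scaling, with a median of 0.55.

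Most calls were made without either pair of exosome libraries. Without libraries 1 and 2, the fit of 18 libraries less these called 6163 of the 6838 genes higher again and 4331 of the 4615 lower again (edgeR). Without libraries 3 and 4 it called 5939 and 4108 of them. No gene was called in the opposite direction in either case. Most genes called higher belong to the scarce groups, whose direction the grouping and the filter fixed, so their repeated calls support nothing. Both of these fits also used the same cell libraries. Among the tested genes of group 5, the median exosome SD was 0.48 on the log2 CPM scale over 4 libraries, 0.30 between libraries 1 and 2, 0.25 between 3 and 4, and 0.34 between the cell libraries. The median size of the fold change in this group was 2.13, several times each of these spreads. In group 4 the spreads were 0.52, 0.35, 0.30 and 0.38 against a median size of 0.93.

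Across the tested genes, exosome libraries resembled each other more than the cells. Pearson's r of log2 CPM was 0.71 between libraries 1 and 2, 0.82 between 3 and 4, and 0.55 to 0.63 across the pairs. The cell libraries correlated at 0.93. Exosomes against cells gave 0.26 (A) and 0.24 (B) for library 1, 0.27 and 0.24 for library 2, 0.13 and 0.15 for library 3, and 0.13 and 0.15 for library 4. These values describe 16211 genes, which are not independent replicates, and low exosome depth lowers them. The tested genes include 2285 without an OS-1 cell count and 1875 of group 1, which passed the filter through exosomes or other lines. That choice can lower the values of exosomes against cells, and its part was not tested.

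Genes to name were sought among those that could be measured in every library: called by both fits, with no overlap of the fractions, and with at least 10 counts in each library for those higher, or 10 in each cell library and 3 in each exosome library for those lower. There were 1102 such genes higher, with log2 fold changes of 0.74 to 7.42 and a median of 2.20, and 2211 lower, from -1.13 to -6.95 with a median of -2.57. The 2 with the largest fold in each direction are described.

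ENSCAFG00000027890 rose most. It stood at 5848, 4392, 2480 and 1813 CPM in exosome libraries 1 to 4, and at 13.33 and 10.6 CPM in cells A and B. All exosome libraries were far above the cells, and libraries 1 and 2 above 3 and 4. The means were 3633 ± 1837 CPM in exosomes (SD, n = 4) and 11.97 ± 1.92 CPM in cells (SD, n = 2). On the log2 scale the difference was 7.42 (SE 1.20, edgeR adjusted p = 2.56e-05), and 6.29 without libraries 1 and 2. In the other lines its exosome mean was 8504 ± 8285 CPM in OS-2, 7493 ± 5148 in OSCA-78 and 7307 ± 754 in OSCA-8 (SD, n = 2 each), and its cell mean 6.26, 11.3 and 10.1 CPM.

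ENSCAFG00000005896 was the most even of the 4 genes over the exosome libraries. It stood at 359, 414, 487 and 452 CPM there and at 1.12 and 2.20 CPM in cells A and B, the latter from 12 and 17 counts. Exosome values were close to each other and far above both cell libraries. The means were 428 ± 54.8 CPM (SD, n = 4) and 1.66 ± 0.765 CPM (SD, n = 2), with a log2 fold change of 7.10 (SE 0.48, edgeR adjusted p = 1.31e-08).

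ENSCAFG00000014490 fell most, but the cell libraries differed strongly. It stood at 278 CPM in cells A and 5113 CPM in cells B, and at 23.2, 45.0, 58.5 and 45.4 CPM in exosome libraries 1 to 4. Both cell values exceeded every exosome value. The means were 43.0 ± 14.7 CPM in exosomes (SD, n = 4) and 2696 ± 3419 CPM in cells (SD, n = 2), a log2 difference of -6.95 (SE 0.89, edgeR adjusted p = 4.46e-06). Without cells B it was -3.57 (edgeR adjusted p = 3.71e-05).

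ENSCAFG00000008353 showed the same unevenness of the cells. It stood at 322 CPM in cells A and 2260 CPM in cells B, and at 19.3, 28.2, 18.8 and 24.96 CPM in exosome libraries 1 to 4, which rest on 5, 10, 9 and 11 counts. The exosome libraries were close to each other, at 22.8 ± 4.53 CPM (SD, n = 4), and below both cell libraries, at 1291 ± 1370 CPM (SD, n = 2). The log2 difference was -6.80 (SE 0.99, edgeR adjusted p = 3.20e-05) and -4.71 without cells B (edgeR adjusted p = 0.000541). In OS-2, OSCA-78 and OSCA-8 the log2 difference was -0.91, -5.28 and -2.15 for ENSCAFG00000014490. It was 0.74, -2.98 and -2.65 for ENSCAFG00000008353. Cells of OSCA-78 were uneven too for ENSCAFG00000014490, at 1325 ± 1358 CPM (SD, n = 2). For neither gene did the difference between OS-1 and the mean of the other 3 lines pass the edgeR test. The edgeR adjusted p was 0.114 for ENSCAFG00000014490 and 0.129 for ENSCAFG00000008353. With DESeq2 the difference passed for both (adjusted p = 0.00739 and 0.00267). The edgeR result turned on the cell library. Without cells A the difference between lines was -5.11 for ENSCAFG00000014490 and -6.01 for ENSCAFG00000008353 (edgeR adjusted p = 0.00104 and 0.0222), and without cells B it was -0.72 and -3.02 (edgeR adjusted p = 0.944 and 0.483).

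**Figure D5:**
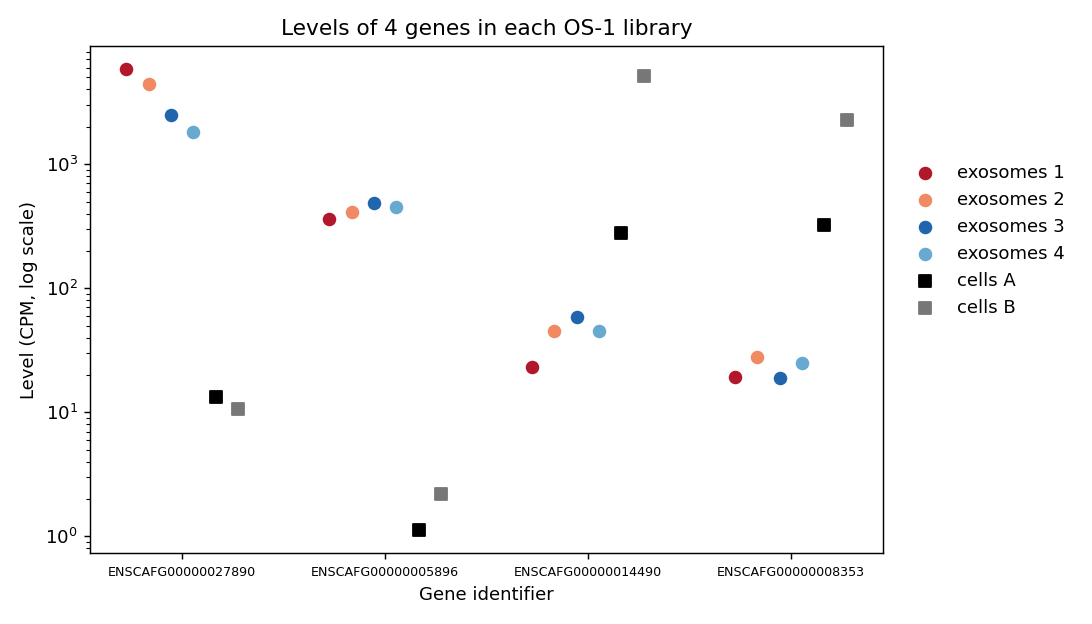
Level in CPM (y axis, log scale) of the 4 named genes (x axis) in each OS-1 library, circles for the 4 exosome libraries and squares for the 2 cell libraries. For ENSCAFG00000027890 and ENSCAFG00000005896 all circles lie above both squares, and for ENSCAFG00000014490 and ENSCAFG00000008353 all lie below, with cells A at 278 and 322 CPM and cells B at 5113 and 2260 CPM.

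The last comparison asked whether the exosome to cell difference of OS-1 departed from that of OS-2, OSCA-78 and OSCA-8. It did for few genes. The OS-1 difference was larger than the mean of the other 3 lines for 5 genes and smaller for 20 of 16211 (0.154%, edgeR interaction test, adjusted p under 0.05), and an unadjusted p was under 0.05 for 2017. With the cell letter as a block, which pairs the cell libraries across lines, the counts were 23 and 122 (edgeR). The 5 differed by 2.30 to 3.52 on the log2 scale and the 20 by -1.84 to -8.57. The 20 were picked for a smaller OS-1 difference in these same data. That choice favours a lower fold change, a higher cell level and a lower exosome level in OS-1. For the 20, the median log2 fold change was -0.81 in OS-1, 5.89 in OS-2, 3.11 in OSCA-78 and 0.44 in OSCA-8. Their median level in cells was 33.3 CPM in OS-1 and 6.78 CPM in the other lines, while in exosomes it was 48.0 and 51.4 CPM. For 6 of the 20 the OS-1 cell level lay above all 6 other cell libraries. For 1 of them all OS-1 exosome levels lay below the 6 other exosome libraries. The shares over all tested genes were not computed, so neither count can be called unusual. CPM scales to total counts, under which 1 of the 20 was called. The test used TMM factors, at 1.36 to 1.72 for OS-1 exosome libraries and 0.472 to 0.563 for those of OS-2. Closeness in CPM therefore need not hold on the scale of the test.

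The number of such genes moved strongly with single libraries. It was 0 and 0 (edgeR) when cells B were left out, and the same when exosome library 3 or library 4 was left out, with 1585, 1649 and 1724 genes at an unadjusted p under 0.05. Without cells A it was 197 larger and 314 smaller. Leaving out exosome library 1 gave 1 and 8, and leaving out library 2 gave 0 and 7. DESeq2 called 110 and 283, and limma 0 and 0, with 1602 at an unadjusted p under 0.05.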

How the data were processed

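The deposited table holds raw counts, whole numbers of reads for 24579 dog gene identifiers in 1 column per library. Per the submitters' processing notes the tools include kallisto 0.43.0, Trimmomatic 0.33.0 and FastQC 0.11.5. The notes list GRCm38.p5 and CanFam3.1 as builds without roles, whereas the table's name refers to Subread. For the counter, its use of strand and reads shared by similar genes, the setting is not given in the sources used here. Values of genes with near-identical copies or overlaps are therefore uncertain. There was 1 column that matched no label, and it was not used. The RefSeq table at hand matched 0 identifiers, so the gene lists and cell type markers drawn up for this work could not be applied.

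Libraries were grouped by title. Counts were fitted with edgeR 4.0.16 (limma 3.58.1, R 4.3.3): TMM, filterByExpr (minimum count 10), robust quasi-likelihood F tests and Benjamini-Hochberg adjustment at 0.05, with 1 mean per line and fraction over 18 libraries. OSCA-32, with exosomes alone, was left out. Fold changes by library used TMM-scaled totals and log2 CPM (prior count 2), and levels used CPM of the total. Matched totals used the expected number of genes under subsampling. SE is the fold change divided by the root of F. The largest folds among genes measured in every library were named. No library was taken as a copy, since the chi-square per degree of freedom was at least 2.11. Scripts were tested on simulated counts. Alternatives included DESeq2 1.42.0. Members and lists were chosen with earlier results of these data known.

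The cell letters were taken to pair cell libraries across lines, a pairing that comes from the data: over genes, the step from A to B in 1 line correlated with that in another at r = 0.159 to 0.445, for all 6 pairs. The main fit left this pairing out, and only the fits with a replicate block used it. OS-1 exosomes and cells share no number or letter.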

Additional observations from a re-analysis of the deposited data

Results flagged for a closer look

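By a test of that difference itself, the exosome to cell difference of OS-1 departed from the mean difference of the other 3 lines for few genes. It was larger for 5 genes and smaller for 20 (edgeR interaction test, adjusted p under 0.05, 16211 genes). This fit did not use the cell letter, and with that letter as a block the counts were 23 and 122 (edgeR). With cells B, exosome library 3 or exosome library 4 left out, 0 genes were called (edgeR, 1585 to 1724 at an unadjusted p under 0.05). No value of the 4 exosome libraries among 20 looked at stood apart from the other 3 by the 95% limit of Dixon's test.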

How the results depend on the processing

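Between 6 and 22 alternatives were tried per result. The number of genes higher in exosomes (6838) stayed within 1.5 times in 19 of 22 settings and the number lower (4615) in 19 of 22. The exceptions were 11382 higher without the filter on low counts, 2915 higher and 2997 lower with a filter on cell counts alone (11564 genes tested), 2467 lower with total counts, 2508 lower after thinning each library to the smallest of the totals, and 4545 higher in the fit of 6 libraries without exosome libraries 3 and 4. Leaving out 1 library gave 6333 to 7680 higher and 4309 to 4476 lower. With the replicate block of the cell letter, 7224 genes were higher and 4733 lower, and 6945 and 4931 with the exosome number added. This changed no call of the named genes. The named genes kept direction and call in 22 of 22 settings each, but this was largely set by how they were chosen. They had the largest folds and had to be called in the fit of the 6 OS-1 libraries, which is among these settings. The settings also share most of their libraries.

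The comparison with the other 3 lines (5 genes larger, 20 smaller) gave 23 and 122 with the block of the cell letter, 1 and 12 with the exosome number added, 8 and 53 without a filter, 110 and 283 with DESeq2, 0 and 0 with limma and 0 and 0 with edgeR on thinned libraries (1206 at an unadjusted p under 0.05). It gave 7 smaller with RLE and 1 with total counts, 15 and 288 without exosome libraries 1 and 2, and 0 and 0 (edgeR, 1685 at an unadjusted p under 0.05) without libraries 3 and 4. Leaving out 1 library gave 0 to 197 larger and 0 to 314 smaller. The cause was not tested. The exosome excess in the share of the 10 leading genes, 1.48 percentage points, turned to -9.98 with 100 genes, and ran from -1.71 to 4.05 with 1 library left out (-1.71 without exosome library 1, -0.199 without library 2).

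With groups from cells A, exosomes took 13.4% in genes without a cell count and 10.3% in group 1. With groups from cells B they took 17.7% in genes without a cell count and 14.1% in group 3. With groups from B and folds against A, the mean of the 4 library medians was 1.012 in group 2, -0.24 in group 3 (0.16 with groups from A) and -0.92 in group 4, and a prior count of 0.5 gave 2.28 in group 2. The sign of group 3 thus depended on the cell library. Settings that left out whole pairs of exosome libraries, or 1 exosome library from a share or median, were chosen after seeing the data. Low exosome totals limit every statement on scarce genes.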
